A study of Mus musculus with 6 samples.

Results

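The G1 cyclins and their inhibitors were examined in liver RNA of mice on a methyl-donor-poor diet and on its supplemented control. They comprised 10 genes: the D cyclins Ccnd1, Ccnd2 and Ccnd3, the E cyclins Ccne1 and Ccne2, the Cip/Kip inhibitors Cdkn1b and Cdkn1c, and the INK4 inhibitors Cdkn2a, Cdkn2b and Cdkn2c. Probes were taken by gene name, and every array probe that carries one of these names is reported. The 10 genes had 17 probes in 44 spots, of 41174 probes and 27962 gene names on the array.

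The livers came from male C57BL/6J mice, an inbred laboratory strain, which were 8 weeks old when put on a diet and were killed 12 weeks later, at 20 weeks. In the CFD diet group (3 arrays) the food was an iron-supplemented diet built from single amino acids that held 0.17% methionine and had no choline or folic acid. Control mice (3 arrays) ate that diet after folic acid (2 mg/kg), choline bitartrate (0.3%) and methionine (0.4%) had been added, so both groups shared its iron supplement and amino acid base. Each array measured total liver RNA with 1 dye. The labels do not say whether the replicates of a group were separate mice, so p-values measure only how far these samples spread, which may be technical.

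A cell in G1 commits to DNA replication when cyclin-dependent kinases (CDKs) phosphorylate the retinoblastoma (RB) proteins and so release E2F transcription factors. D cyclins activate CDK4 and CDK6, and E cyclins activate CDK2 later in G1. INK4 proteins bind CDK4 and CDK6 and keep D cyclins from activating them, whereas Cip/Kip proteins bind complexes of CDK and cyclin, and those of cyclin E with CDK2 are inhibited most. Most hepatocytes of an adult liver are outside the cell cycle and can enter it again after loss of liver tissue, when Ccnd1 is among the genes that are induced.

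Liver samples of the CFD diet group had more Ccnd1, Ccne1, Ccne2, Cdkn1c, Cdkn2b and Cdkn2c RNA than those of the control group, and less Ccnd3 RNA. The Ccne2 signal was low and was well above background in only 1 control sample. The increase was 5.62-fold for Ccnd1, 5.08-fold for Cdkn1c and about 3-fold for Cdkn2c (3.01-fold and 2.96-fold at its probes), and the other called changes were under 2-fold. Those smaller calls, of Ccne1, Ccne2, Cdkn2b and Ccnd3, were less certain, and each was lost under at least 1 alternative setting. Ccnd2 and Cdkn1b did not pass the test, and Cdkn2a did not rise well above background in any sample. Thus cyclins and inhibitors of both inhibitor families were among the genes that rose.

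Testing required a probe to exceed background clearly in all 3 samples of 1 group or the other, and it was called at an adjusted p below 0.05 (limma, Benjamini-Hochberg over all 23482 tested probes). Of the 17 probes 14 were tested, for 9 genes: 8 were called higher on the CFD diet, 1 lower and 5 neither. Among those called higher, the Ccne2 probe met the rule for testing in the CFD diet group alone, the group where it was high. The 8 include both Ccne1 probes, given the same position, and both Cdkn2c probes, whose positions overlap. Across all tested probes 49.7% were called, 22.1% higher and 27.6% lower, so being called was common on these arrays, while 57.1% of the tested cyclin and inhibitor probes were higher and 7.14% lower. The median log2 fold change was 0.51 over the 14 probes and -0.12 over all tested probes. The groups did not overlap at 10 of the 14 probes, against 61.4% of all tested probes. The count of 8 higher probes fell to 4 without CFD diet replicate 3 and to 5 without control replicate 1, and that of 1 lower probe to 0 without control replicate 1 or 3 or CFD diet replicate 1 or 3. Ccnd1, Cdkn1c and Cdkn2c probe A_51_P513719 were called higher under all 15 alternative settings, and Cdkn2c probe A_51_P513720 under the 14 run for it.

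**Figure D1:**
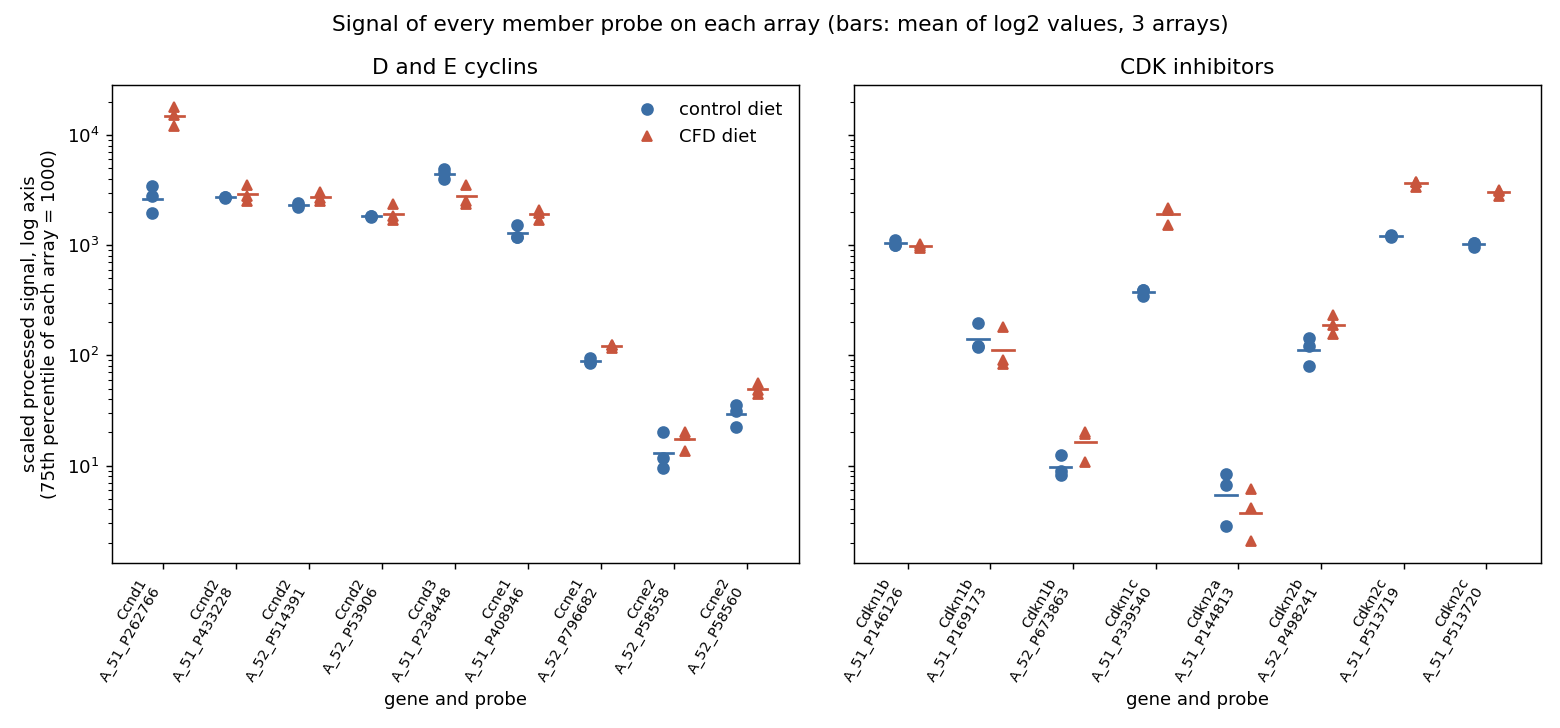
Scaled signal (log axis, each array's 75th percentile set to 1000) of all 17 probes on each of the 3 control arrays (circles) and 3 CFD diet arrays (triangles), with a bar at each group's mean of log2 values. The triangles stand clear above the circles at Ccnd1, Cdkn1c and both Cdkn2c probes. At Ccnd3 they lie below the circles, with a narrow gap to the nearest.

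The sequence just before the transcription start was examined for motifs bound by factors that act in G1: the E2F site, the GC box bound by SP1-family factors, the cAMP response element (CRE) and the AP-1 site. The letters searched on both strands were TTTGGCGC, TTTCCCGC, TTTGCCGC and TTTCGCGC for E2F, GGGCGG for the GC box, TGACGTCA for CRE and TGANTCA for AP-1. RefSeq windows (GRCm38.p6) of the 250 bases before the start were matched by symbol for 6 of the 10 genes, with 9 windows in all. Ccnd1, Ccnd2, Ccne2 and Cdkn1c were not matched. One window each is shown for a D cyclin that fell, an E cyclin that rose and the INK4 genes that rose, from 5′ to 3′ on the strand of the gene, with every match in capitals.
Ccne1, chr7:38107491-38107740, minus strand: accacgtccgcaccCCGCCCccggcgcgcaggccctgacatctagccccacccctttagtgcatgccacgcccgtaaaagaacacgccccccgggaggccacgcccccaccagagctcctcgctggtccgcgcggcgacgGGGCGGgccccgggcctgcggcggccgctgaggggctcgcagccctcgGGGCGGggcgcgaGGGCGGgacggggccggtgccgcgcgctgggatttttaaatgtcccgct
Cdkn2c start 1, chr4:109666757-109667006, minus strand: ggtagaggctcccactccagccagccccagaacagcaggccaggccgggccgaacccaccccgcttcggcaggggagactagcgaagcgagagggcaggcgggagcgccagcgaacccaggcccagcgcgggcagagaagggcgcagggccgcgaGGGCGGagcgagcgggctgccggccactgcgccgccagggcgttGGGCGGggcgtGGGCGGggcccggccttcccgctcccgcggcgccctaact
Cdkn2b, chr4:89311033-89311282, minus strand: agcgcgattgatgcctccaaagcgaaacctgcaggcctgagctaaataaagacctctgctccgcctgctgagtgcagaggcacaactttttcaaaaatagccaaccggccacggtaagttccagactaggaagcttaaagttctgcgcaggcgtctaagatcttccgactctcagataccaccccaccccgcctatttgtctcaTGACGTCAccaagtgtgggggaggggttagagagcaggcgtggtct
Ccnd3 start 2, chr17:47593217-47593466, plus strand: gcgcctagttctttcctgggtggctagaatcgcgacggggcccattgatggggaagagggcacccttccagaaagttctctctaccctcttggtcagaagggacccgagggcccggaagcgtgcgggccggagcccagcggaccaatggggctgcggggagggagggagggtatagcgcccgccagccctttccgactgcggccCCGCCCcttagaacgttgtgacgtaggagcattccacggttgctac

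The Ccne1 window held 4 GC boxes and that of Cdkn2c start 1 held 3. The window of Ccnd3 start 2, the cyclin that fell, held 1 GC box, and that of its start 1 held 2. Cdkn2b had a CRE and no GC box. Among 32851 windows of the same length in the RefSeq table, 32.7% held a GC box, 1.55% a CRE, 1.86% an E2F match and 6.75% an AP-1 match. Only 1 of the 9 windows, Cdkn2a start 1, held an E2F match. That window also held 2 GC boxes, the Cdkn1b window held 1, and the second starts of Cdkn2a and Cdkn2c held none of these motifs. GC boxes thus stood before genes that rose and before the gene that fell, and none of the 9 had an AP-1 match. A match is a stretch of letters, and no binding was measured.

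Of the D cyclins, which carry growth signals to CDK4 and CDK6, Ccnd1 had the largest change. Its probe (A_51_P262766, on the chromosome 7 sequence 7_random of the mm7 build, 7568179 to 7568238) read a scaled signal of 3440, 2788 and 1945 in control samples 1 to 3, against 18100, 12180 and 15060 in CFD diet samples 1 to 3. The scaled signal sets each array's 75th percentile to 1000. All 3 CFD diet arrays were above all 3 control arrays. The log2 fold change was 2.49 ± 0.25 (SE, 95% interval 1.91 to 3.08, n = 3 and 3, limma adjusted p = 0.000555). The probe was spotted 10 times on each array, and the spots of an array varied by a coefficient of variation of 2.71% to 4.53%. Arrays with the same replicate number shared a slide, and within slides 1, 2 and 3 the difference was 2.40, 2.13 and 2.95.

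Ccnd2, the D cyclin encoded on chromosome 6, was measured by 3 probes, and none was called. At A_51_P433228 (6, 127163669 to 127163728) the scaled signal was 2677, 2758 and 2732 in control samples, against 2527, 2777 and 3534 in CFD diet samples, a log2 difference of 0.10 ± 0.15 (95% interval -0.27 to 0.46, limma adjusted p = 0.615). At A_52_P53906 (6, 127173178 to 127173237) it was 1833, 1822 and 1860 against 1696, 1828 and 2352, a difference of 0.08 ± 0.15 (-0.29 to 0.44, limma adjusted p = 0.697). At both probes the groups overlapped, CFD diet replicate 3 was the highest array, and the difference was -0.04 and -0.06 without it. At A_52_P514391 (6, 127154070 to 127154129) the arrays read 2215, 2395 and 2330 against 2515, 2675 and 3068. Here the groups did not overlap, and the difference of 0.25 ± 0.13 (-0.06 to 0.55) did not pass (limma adjusted p = 0.147), whereas with quantile normalization it was 0.36 and did (adjusted p = 0.0462). With median scaling it was 0.04 (adjusted p = 0.845). The intervals of the 3 probes leave room for changes up to 0.55 on the log2 scale.

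Ccnd3, the D cyclin needed for lymphocyte development, was the only member that fell. Its probe (A_51_P238448, 17, 45735858 to 45735917) read 4478, 3997 and 4959 in control samples, against 2383, 3510 and 2538 in CFD diet samples. All CFD diet arrays were below all control arrays, and CFD diet replicate 2 was nearest to them. The log2 fold change was -0.69 ± 0.18 (95% interval -1.12 to -0.25), which is 1.61-fold lower (limma adjusted p = 0.0195). Within slides 1, 2 and 3 it was -0.91, -0.19 and -0.97. The adjusted p was 0.0535 without control replicate 1, 0.0767 without control replicate 3, 0.0568 without CFD diet replicate 1 and 0.0704 without CFD diet replicate 3.

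The D cyclins thus differed among themselves. Signals of separate probes cannot be compared as levels, but the ratio of 2 probes on the same array can be followed between diets and does not depend on how the arrays were scaled. The log2 ratio of Ccnd1 to Ccnd3 was 3.18 higher on the CFD diet, and that of Ccnd1 to Ccnd2 (A_51_P433228) was 2.39 higher. In both ratios the 3 CFD diet arrays lay above the 3 control arrays, with an exact two-sided permutation p of 0.1, the smallest that 3 against 3 allows. These were among 4 ratios, chosen after the values were seen, and the Benjamini-Hochberg adjusted value was 0.1 for each.

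Both E cyclins, the partners of CDK2 at the entry to S phase, were higher on the CFD diet by less than 2-fold. Ccne1 had 2 probes, for which the files give the same position (7, 34990690 to 34990713). At A_51_P408946 the scaled signal was 1187, 1517 and 1188 in control samples, against 1705, 1968 and 2085 in CFD diet samples. At the dimmer A_52_P796682 it was 87.9, 94.3 and 85.4 against 117, 125 and 125. At both probes every CFD diet array was above every control array. Because the files give them the same position, the 2 probes are not separate evidence. The log2 fold changes were 0.57 ± 0.15 (95% interval 0.20 to 0.94, limma adjusted p = 0.0206) and 0.46 ± 0.11 (0.18 to 0.73, limma adjusted p = 0.0156).

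The Ccne1 calls were close to the threshold. For A_51_P408946 the adjusted p was 0.0691 without control replicate 1, 0.0842 without control replicate 3, and leaving out CFD diet replicate 3 gave 0.0746. For A_52_P796682 it was 0.0533, 0.0751 and 0.0562 without the same arrays. With the arrays scaled by their median the log2 fold changes were 0.37 (adjusted p = 0.118) and 0.25 (adjusted p = 0.191), and for A_52_P796682 it was 0.22 with normexp background correction (adjusted p = 0.353).

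Ccne2 had 1 tested probe, A_52_P58560 (4, 11130171 to 11130230), which was well above background on 1 control array and on all 3 CFD diet arrays. It read 22.6, 35.1 and 31.2 in control samples, against 45.1, 48.2 and 56.3 in CFD diet samples. The groups did not overlap, and all 6 values were low. The log2 fold change was 0.77 ± 0.19 (95% interval 0.31 to 1.23, limma adjusted p = 0.0162). It was not called without CFD diet replicate 3 (adjusted p = 0.0614), and with normexp background correction, which compresses dim signals, it was 0.18 (adjusted p = 0.572). Median scaling and quantile normalization also ended the call (adjusted p = 0.0587 and 0.0856). The other Ccne2 probe, A_52_P58558 (4, 11130287 to 11130346), was well above background on 0 control and 2 CFD diet arrays and was not tested. Its values of 11.6, 20.0 and 9.56 against 18.9, 13.5 and 20.3 overlapped.

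**Figure D2:**
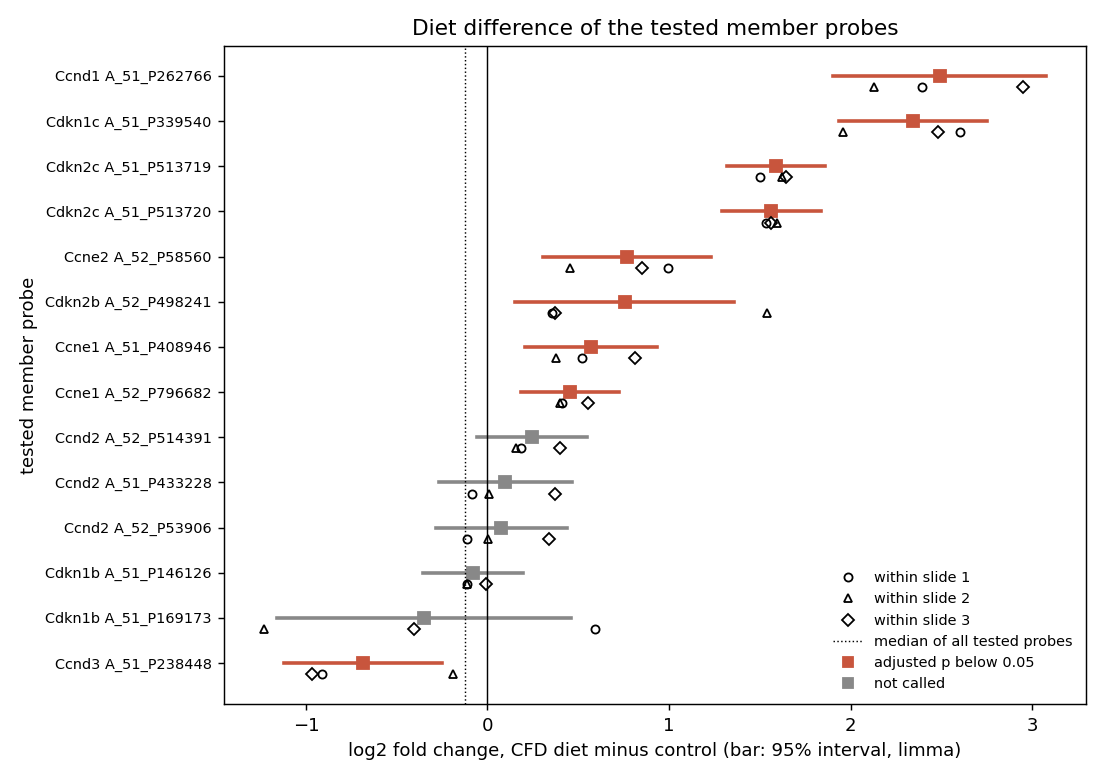
Log2 fold change, CFD diet minus control, of the 14 tested probes (squares, with bars for the 95% interval from limma, orange where called) and the difference within each of the 3 slides (open symbols). The dotted line is the median of all tested probes, -0.12. The intervals of Ccnd1, Cdkn1c and both Cdkn2c probes start above 1, and those of Ccnd2 and Cdkn1b span 0.

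The Cip/Kip genes also differed from each other. Cdkn1c, which encodes p57 and is expressed mainly from the maternal chromosome, rose by about as much as Ccnd1. Its probe (A_51_P339540, 7, 139886128 to 139886187) read 346, 393 and 393 in control samples, against 2101, 1525 and 2190 in CFD diet samples. Every CFD diet array was far above every control array. The log2 fold change was 2.35 ± 0.17 (95% interval 1.94 to 2.75, limma adjusted p = 0.00019), and within slides 1, 2 and 3 it was 2.60, 1.96 and 2.48.

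Cdkn1b encodes p27, an inhibitor whose amount is set largely by protein degradation. Neither of its 2 tested probes was called. A_51_P146126 (6, 134939519 to 134939578) read 1109, 1011 and 998 in control samples, against 1024, 934 and 993 in CFD diet samples, a log2 difference of -0.08 ± 0.12 (95% interval -0.36 to 0.20, limma adjusted p = 0.597). The groups overlapped at this probe. With median scaling its difference was -0.28 ± 0.15 (limma adjusted p = 0.128), so how large a change the interval leaves room for depends on the scaling. A_51_P169173 (6, 134935407 to 134935465) read 120, 196 and 121 against 181, 83.3 and 91.4, with a wide interval of -1.16 to 0.46 (difference -0.35, limma adjusted p = 0.423). Its 10 spots on control array 2 varied by a coefficient of variation of 36.2%, 1 of them marked as an outlier by the scanner software. That spot counts in the coefficient but was left out of the signal given for the array. The difference was -0.70 without CFD diet replicate 1, -0.14 and -0.21 without CFD diet replicates 2 and 3, and -0.12 without control replicate 2. The third probe, A_52_P673863 (6, 134937910 to 134937969), was well above background on 1 array of each group and was not tested, with values of 12.5, 8.97 and 8.16 against 20.3, 19.4 and 10.8. Set against A_51_P146126 on the same array, the Cdkn1c log2 ratio was 2.42 higher on the CFD diet without overlap of the groups (exact permutation p = 0.1).

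Among the INK4 genes, Cdkn2c had the steadiest increase. Cdkn2c encodes p18, an inhibitor of CDK4 and CDK6. A_51_P513719 (4, 109037613 to 109037672) read 1198, 1225 and 1207 in control samples, against 3388, 3766 and 3769 in CFD diet samples. A_51_P513720 (4, 109037591 to 109037652) read 973, 1042 and 1048 against 2822, 3148 and 3089. The groups stood far apart at both probes, whose positions overlap, so they are not separate evidence. The log2 fold changes were 1.59 ± 0.11 (95% interval 1.32 to 1.86, limma adjusted p = 0.000177) and 1.56 ± 0.12 (1.29 to 1.84, limma adjusted p = 0.000197), and the 6 differences within slides were all close to these values, the highest being 1.64.

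Cdkn2b encodes p15, an INK4 protein induced by TGF-beta in epithelial cells. Its probe (A_52_P498241, with no position in the files) read 123, 80.6 and 145 in control samples, against 157, 234 and 188 in CFD diet samples. All CFD diet arrays were above all control arrays, with a narrow gap between control replicate 3 and CFD diet replicate 1. The log2 fold change was 0.76 ± 0.25 (95% interval 0.15 to 1.36, limma adjusted p = 0.0443). Within slides it was 0.36, 1.54 and 0.37, and with the slide as a block the adjusted p was 0.0868. The adjusted p was 0.0758 without control replicate 1, 0.102 without control replicate 2, 0.121 without CFD diet replicate 2 and 0.106 without CFD diet replicate 3. The log2 ratio of Cdkn2c (A_51_P513719) to Cdkn2b on the same array was 0.83 higher on the CFD diet, with no overlap of the groups (exact permutation p = 0.1). The gap was narrow, with control array 2 at 0.50 and CFD diet array 2 at 0.58 above the control mean.

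Cdkn2a encodes the INK4 protein p16 and, from another first exon, the p53 regulator ARF. Its probe (A_51_P144813, 4, 88678367 to 88678426) was well above background on none of the 6 arrays, with values of 2.84, 6.65 and 8.38 in control samples, against 2.05, 6.10 and 4.08 in CFD diet samples. The values overlapped and have no reliable order, so no fold is given and a change in Cdkn2a was not detectable here. In the RefSeq gene order Cdkn2a lies between Mtap, a gene of methionine salvage, and Cdkn2b. Mtap differed by 0.16 ± 0.15 on the log2 scale and was not called (limma adjusted p = 0.415). Of these neighbours of Cdkn2a, Cdkn2b passed the test narrowly and Mtap did not. Whether they differed from each other was not tested.

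**Figure D3:**
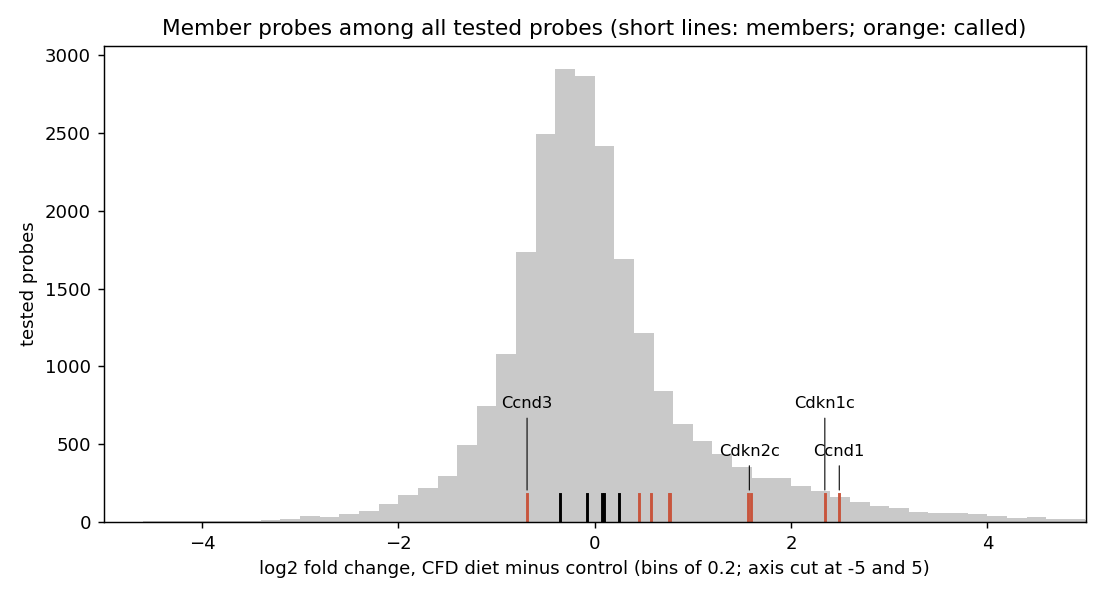
Distribution of the log2 fold change (CFD diet minus control, bins of 0.2) over the 23482 tested probes in grey, with a short line at each of the 14 cyclin and inhibitor probes (orange where called, black otherwise). The axis ends at -5 and 5, which leaves out 84 probes. Ccnd1, Cdkn1c and Cdkn2c lie in the right tail, and Ccnd3 lies left of the centre.

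The genes that act with these cyclins and inhibitors were read from lists, each gene by its brightest tested probe. By that rule 6 of the 9 tested members were called higher and 1 lower, with a median log2 fold change of 0.76. Over all 15909 tested genes 50.8% were called, 23.6% higher and 27.2% lower, and the median was -0.11. Some list genes called higher were well above background on every CFD diet array but not on every control array.

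The kinases that the members bind were not called. Of 7 tested genes for G1 CDKs and their activators, 0 were called higher and 1 lower, with a median of 0.08. Cdk7, the kinase of the CDK-activating complex, is named after its values were seen. It was not called at its brightest probe (0.17), but another of its probes was called higher at 0.99 (limma adjusted p = 0.00443). Cdk4 differed by 0.19 ± 0.14 (limma adjusted p = 0.277) and Cdk6 by 0.09 ± 0.15 (limma adjusted p = 0.651), and both were slightly negative with median scaling (-0.01 and -0.12). Cdk2 was well above background on 1 array of each group at most and was not tested. The 1 gene that fell was Ccnh, the cyclin of the CDK-activating kinase, at -0.51 ± 0.12 (limma adjusted p = 0.014). Its call was lost without control replicate 3 or CFD diet replicate 3. Of its other probes 1 was called lower (-0.57) and the others were not called, at 0.27 and 0.05, so its direction is uncertain.

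Of the other 2 CDK inhibitors, Cdkn1a rose more than any member. Cdkn1a encodes p21, the Cip/Kip protein induced by p53. It read 188, 116 and 144 in control samples, against 2773, 1353 and 2350 in CFD diet samples, with no overlap. The log2 fold change was 3.82 ± 0.30, or 14.1-fold (limma adjusted p = 0.000248). Cdkn2d, which encodes the INK4 protein p19, was not called at 0.05 ± 0.15 (limma adjusted p = 0.786), and its sign changed with median scaling (-0.15) and without control replicate 2 (-0.01) or CFD diet replicate 2 (-0.07).

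Of 12 tested RB, E2F and DP genes, the targets and effectors of the G1 kinases, 2 were called higher, 6 lower and 4 neither, with a median of -0.32. Rbl1, the p107 member of the RB family and itself an E2F target, read 111, 106 and 94.3 in control samples, against 392, 333 and 574 in CFD diet samples. The groups were far apart, and the log2 fold change was 2.03 ± 0.21 (limma adjusted p = 0.000698). Rbl2, the p130 member that is abundant in resting cells, fell by 0.83 on the log2 scale (SE 0.15, limma adjusted p = 0.00503). Rb1 itself was not called at 0.15 ± 0.11 (limma adjusted p = 0.299) and was -0.06 with median scaling. Tfdp2, a DP partner of the E2F factors, fell by 1.14 (SE 0.17, limma adjusted p = 0.00247), with smaller differences at its other probes. E2f8, a repressor E2F, fell by 2.07 (SE 0.31, limma adjusted p = 0.00257) at its brightest probe, but its other probe was at 0.61 and not called, so its direction is uncertain. The other gene called higher was E2f7, well above background on 1 control array and named after its values were seen, at 1.20 ± 0.36 (limma adjusted p = 0.0293). The count of higher genes was 1 without control replicate 1 or 3 or CFD diet replicate 1 or 3, and 1 with the slide as a block. With normexp background correction Rbl1 was 1.07 and still called.

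Of 14 tested genes for the ubiquitin machinery that acts on G1 cyclins and p27, 1 was called higher, 5 lower and 8 neither, with a median of -0.20. Not all of these genes promote the loss of those proteins, so the counts give no direction for it. Fbxo31, an F-box protein that targets cyclin D1, read 13790, 17140 and 18660 in control samples, against 3654, 7271 and 3619 in CFD diet samples. The groups did not overlap, and Fbxo31 fell by 1.84 (SE 0.29, limma adjusted p = 0.00303). Rnf123, the ligase subunit that acts on p27 in G1, fell by 1.43 (SE 0.20, limma adjusted p = 0.00192). Usp28, a deubiquitinase that opposes Fbxw7, fell by 0.82 (SE 0.17, limma adjusted p = 0.00724). The count of lower genes was 3 without control replicate 1 or 3 or CFD diet replicate 3, and 3 with the slide as a block. The 1 gene called higher was Fzr1, an activator of the anaphase-promoting complex, at 0.33 ± 0.11 (limma adjusted p = 0.0443), named after its values were seen. Its other probe was at -0.12 and not called, and the count of higher genes was 0 when any one of the 6 arrays was left out and with the slide as a block.

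Genes that E2F activates at the start of S phase mostly rose, with 13 of 21 called higher, 3 lower and 5 neither, and a median of 0.64. Uhrf1, a reader of hemimethylated DNA, rose by 2.50 ± 0.17 (limma adjusted p = 0.000153), Ccna2, the S-phase cyclin, by 2.24 ± 0.22 (limma adjusted p = 0.000574) and Mcm2, a subunit of the replicative helicase, by 2.07 ± 0.28 (limma adjusted p = 0.00163). Among those that fell, and named after their values were seen, were Mcm10, a replication factor (-1.96), and Tk1, a thymidine kinase (-1.63). The only tested Mcm10 probe was very bright, at 76050, 117100 and 83310 in control samples. Whether its signal came from Mcm10 RNA alone was not tested. Without control replicate 3 the count of higher genes was 8.

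All 12 mitotic genes were called higher, with a median of 2.13. Some of the 12 met the rule for testing in the CFD diet group alone, so the filter favoured them. Plk1, a mitotic kinase, rose by 2.54 ± 0.35 (limma adjusted p = 0.00181), Mki67, the proliferation marker Ki-67, by 2.46 ± 0.23 (limma adjusted p = 0.000472) and Ccnb1, the mitotic cyclin, by 2.25 ± 0.28 (limma adjusted p = 0.0012). Aurkb, a mitotic kinase named because no control array had it well above background, has only a bound there and was at least 2.75-fold higher, and with it at its bound the median was 1.93. Where a bound is used, it sets the mean of the brighter group against the lowest signal well above background on each array of the other group, or the dim probe's own signal where that was higher.

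**Figure D4:**
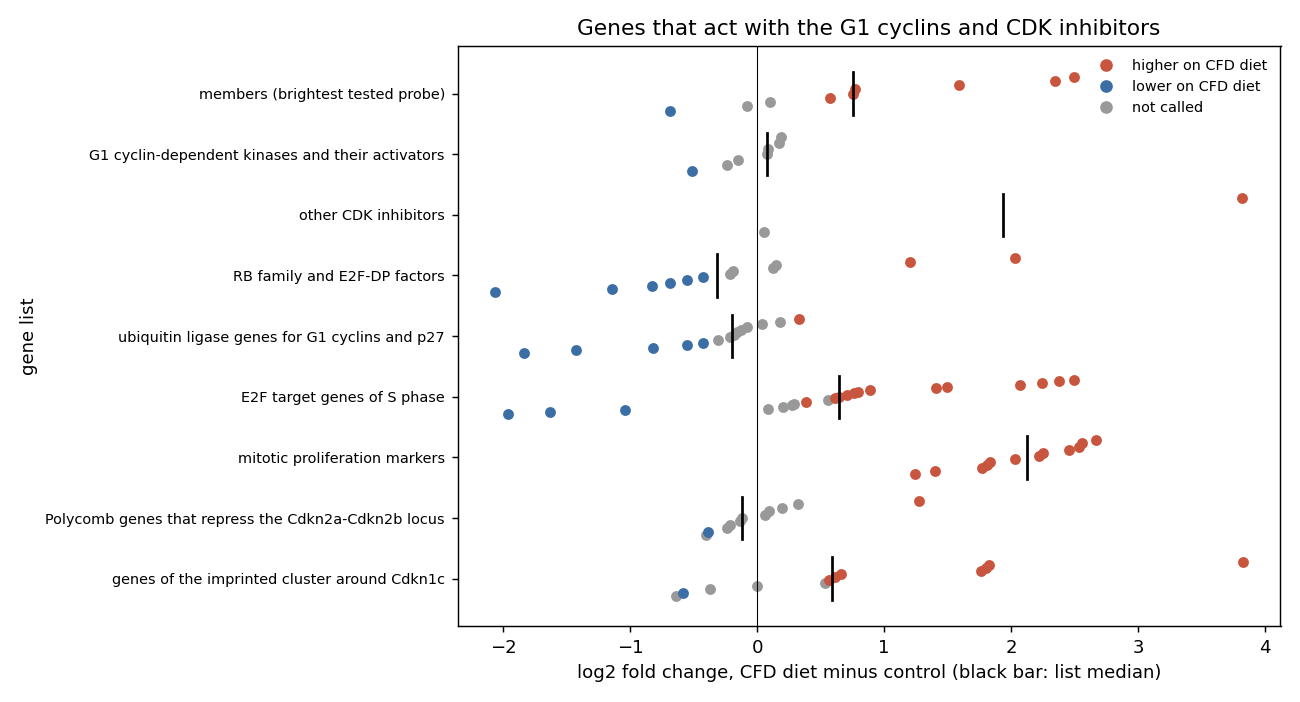
Log2 fold change, CFD diet minus control, of each tested gene by its brightest probe (1 point per gene, orange where called higher, blue where called lower, grey where not called), in rows for the 9 tested members and 8 lists, with a black bar at each median. All 12 mitotic genes lie above 1, the G1 kinases and their activators lie near 0, and the RB and E2F genes spread to both sides.

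Further lists concern the chromosome regions of the inhibitors. Polycomb proteins repress the region that holds Cdkn2a and Cdkn2b, and of 11 tested genes for them 1 was called higher, 1 lower and 9 neither, with a median of -0.12. Phc1, a subunit of the PRC1 complex, rose by 1.27 ± 0.19 (limma adjusted p = 0.0025), and Cbx8, another PRC1 subunit, fell by 0.39 (SE 0.13, limma adjusted p = 0.0463), a call that was lost when control replicate 1 or 3 or any CFD diet replicate was left out and with a slide block (adjusted p = 0.0736). The count of lower Polycomb genes was 3 with median scaling, 2 with quantile normalization, 2 without control replicate 2 and 0 with normexp, with the block or with trend and robust eBayes.

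Cdkn1c lies in a cluster of imprinted genes. Of 12 tested genes of that cluster 7 were called higher, 1 lower and 4 neither, with a median of 0.59. Some of those called higher, H19 among them, met the rule for testing in the CFD diet group alone, so the filter favoured them. H19, an imprinted RNA without a protein product that was named after its values were seen, read 46.8, 29.7 and 59.6 in control samples, against 636, 582 and 639 in CFD diet samples. It was well above background on 2 control arrays, and the difference was 3.83 ± 0.25, or 14.2-fold (limma adjusted p = 0.000137), but 2.08 with normexp background correction. Phlda2, a growth-restraining imprinted gene, rose by 1.83 ± 0.30 (limma adjusted p = 0.00335) and Tssc4 by 0.66 ± 0.14 (limma adjusted p = 0.00855, and 0.0644 with median scaling). Osbpl5, a lipid transfer protein, rose by 0.61 ± 0.18 (limma adjusted p = 0.0285), a call that was lost without control replicate 1 or 2 or CFD diet replicate 2 or 3. With median scaling the counts of the cluster were 4 higher and 3 lower. The immediate neighbours of Cdkn1c were Kcnq1, a potassium channel gene, at 0.57 ± 0.18 (limma adjusted p = 0.0361) and Slc22a18, a transporter gene, at -0.38 ± 0.16 (limma adjusted p = 0.0926). Slc22a18 was not called at that brightest probe, but another of its probes was called lower at -0.55 (limma adjusted p = 0.0252). By brightest probe the 1 lower gene of the cluster, named after its values were seen, was Cd81 at -0.58 (limma adjusted p = 0.0262). The count of lower genes was 0 without control replicate 1 or 3 or CFD diet replicate 1 or 3 and 2 without CFD diet replicate 2.

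In bulk liver RNA fewer cells of a type and less RNA per cell cannot be told apart. Markers of several cell types differed between the same groups as the cyclins and inhibitors. The summed scaled signal of 11 stellate cell and fibroblast markers was 76330 to 87210 in control samples, against 203100 to 236200 in CFD diet samples, with 11 of 11 called higher. That of 8 cholangiocyte markers was 1050 to 1678 against 6603 to 9455, with 7 of 8 higher and Cftr not above background in controls. That of 10 macrophage and Kupffer cell markers was 162100 to 228900 against 402400 to 554600, with 7 of 10 higher and 1 lower. The lower one was Clec4f at -0.73 (limma adjusted p = 0.0277), and Cd5l (0.41) and Vsig4 (0.25) were not called. These genes are named after their values were seen, and the markers of this list did not move as 1 group. For the neutrophil list the sums were 1421 to 2402 against 19010 to 25140, with 5 of 5 tested higher and Elane and Cxcr2 not above background in controls. Some markers called higher in this, the cholangiocyte and the macrophage lists met the rule for testing in the CFD diet group alone. Each sum adds signals of separate probes, so it is weighted toward the brightest and is not a level of its cell type. In the neutrophil list S100a9, named after its values were seen, read 17120 to 22640 in CFD diet samples. The 12 hepatocyte markers summed to 3610000 to 4457000 against 2230000 to 3414000, with 0 higher and 8 lower, and all 12 were well above background on every array, as the tissue label says. For 10 endothelial markers the sums were 42790 to 46440 against 29290 to 36270, with 1 higher and 5 lower. T and NK cell markers summed to 987 to 1308 against 821 to 1225, with 0 higher and 1 lower of 8 tested and Ncr1 not above background in controls, and B cell markers to 834 to 1467 against 693 to 1002, with 0 higher and 1 lower of 4 tested. The part of these cell types in the changes of the cyclins and inhibitors was not tested.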

How the data were processed

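Total liver RNA was measured on 1-colour Agilent arrays, 3 per diet, grouped by the labels. The deposited scanner files give an intensity per spot, background-subtracted by Agilent Feature Extraction, version 10.5.1.1 per the file headers and 10.7 per the submitters' processing notes. Probe positions and the mm7 build are those of the file headers. Control and outlier spots were left out, spots of a probe averaged, and log2 intensities centred on each array's 75th percentile (365 to 438.8 on control arrays, 404.1 to 670.2 on CFD diet arrays). On the control arrays 21689 to 26270 of 41174 probes were well above background, and on the CFD diet arrays 23585 to 29044. No spot was saturated (0), and the number of arrays limits the precision.

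Differences were fitted with lmFit and eBayes of limma 3.58.1 in R 4.3.3, with no covariate, and adjusted over all 23482 tested probes. The procedure was tested on simulated data. Probes were named from the files' names and accessions through RefSeq: 22951 by accession, 6659 as a current and 3109 as an older symbol, and 8455 kept the file's name. The deposited value table, also linear intensity, served as an alternative. Its columns ranked exactly as another replicate of their group (rank correlation 1, the column named control 1 matching the array scanned as control 2, and so on), so the replicate numbers used here are those of the scanner files. Why the numbers differ is unknown, and groups are the same in both.

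The text names every member, its direct partners and relatives (Cdkn1a, Cdkn2d, Cdk2, Cdk4, Cdk6, Rb1, Rbl1, Rbl2), and from each other list the up to 3 called genes with the largest change that were well above background on all arrays. Neighbours of Cdkn2a and Cdkn1c are named for their position, and Aurkb and some markers because they were not above background in controls. Others are said to be named after their values were seen. One gene of the lists is counted but not reported by name here. The members and lists were chosen with earlier results of these data known. Alternatives changed the background correction, scaling, probe filter, gene summary, variance model, slide block, value table and the arrays included.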

Additional observations from a re-analysis of the deposited data

How the results depend on the processing

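Ccnd1 (log2 fold change 2.27 to 2.72), Cdkn1c (1.95 to 2.51) and Cdkn2c probe A_51_P513719 stayed called higher under all 15 alternatives, and A_51_P513720 under the 14 run for it (the setting with 1 row per gene drops it). Each of the smaller calls was lost under at least 1 alternative. The 8 probes called higher became 4 with median scaling, 4 without a filter on dim probes and 5 with normexp background correction, and ranged from 4 to 8 when 1 array was left out. The 1 probe called lower became 0 without the filter and ranged from 0 to 1 when 1 array was left out. Over all tested probes the 6476 called lower became 3661 without the filter and 4108 to 6847 with 1 array left out. The cause was not tested. With median scaling 31% of all calls were higher, against 44.5%, and the median of all probes was -0.33. The sign turned, without a call on either side, at Ccnd2 probes A_51_P433228 (-0.105 with median scaling, -0.039 to 0.203 with 1 array left out) and A_52_P53906 (-0.127, and -0.062 to 0.174), and for Cdk4 (-0.013), Cdk6 (-0.118), Rb1 (-0.055) and Cdkn2d (-0.15) with median scaling, and for Cdkn2d with 1 array left out (-0.066 to 0.115, -0.011 without control replicate 2). Cdkn2b was 0.36 with normexp, 0.55 with median scaling and 0.61 with quantile normalization, called in none.

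Same-numbered arrays shared a slide but did not deviate together (correlations of 0.099, -0.081 and -0.001), so the numbers give no evidence of a pairing. With the replicate block (slide), 7 of the member probes were called higher and 1 lower, and of all tested probes 4795 higher and 5500 lower. The block ended the Cdkn2b call and no other member call, and it ended the Cbx8 call. With normexp background correction Uhrf1 was 1.39, Ccnb1 1.32, Phlda2 0.93, Phc1 0.72, Plk1 1.73 and Cdkn1a 2.92, all still called. For dim probes such as Cdkn2a the signal over background limits what can be seen.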
